A study of Mus musculus with 9 samples.

Results

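The genes described here encode 8 components of the extrinsic death pathway. They are the ligand Tnfsf10 (TRAIL), the receptors Tnfrsf10b (the mouse TRAIL receptor), Tnfrsf1a and Tnfrsf1b (the 2 receptors of TNF) and Fas, the adaptor Fadd, the inhibitor Cflar (FLIP) and the initiator caspase Casp8. They were picked by name out of 37315 genes named on the array, which carries 19 probes for them. Expression was measured in mMKs from the bone marrow of male mice. The groups were unirradiated controls (Ctrl), sham-irradiated by the methods, and mice at 1 and 3 days post IR (dpi). The latter received 5 Gy of γ-rays, a single dose to the whole body. Each group has 3 arrays, 9 in all, and the submitters describe independent experiments with different donors, without saying whether the RNA of an array came from 1 mouse. By the methods, mMKs were taken from marrow cells by positive selection for CD41 and then CD42d, and the wild-type mice of the study were C57BL/6, but strain and age are not given for these arrays. The deposited files are scans of Agilent 1-colour arrays with probes of 60 bases, while the methods of the paper describe another chip.

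Death receptors belong to the TNF receptor superfamily. When ligand binds, Fas and the TRAIL receptor recruit FADD through their death domains, FADD recruits caspase-8, and caspase-8 cleaves itself and then further caspases, unless FLIP takes its place in the complex. TNFR1, the product of Tnfrsf1a, first assembles a complex that signals to NF-kB and survival and only secondarily a FADD-caspase-8 complex, whereas TNFR2, the product of Tnfrsf1b, has no death domain. Fas and Tnfrsf10b are known targets of p53, and the lifespan of platelets is known to be limited by the mitochondrial arm of apoptosis.

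Ctrl replicate 1 had 69.1% of its spots well above background, the other Ctrl arrays 79.5% and 80.8%, the arrays at 1 dpi 72.3% to 75.6% and those at 3 dpi 81.6% to 81.8%. Ctrl replicate 1 was the only array on its slide and in its scan, while the other 8 arrays shared a slide. Its values correlated with those of the other Ctrl arrays at r = 0.987 across the genes tested, against 0.998 between those 2 arrays, and results are therefore also given without it. Values below are on the log2 scale, and 0 stands for the 75th percentile of intensities on the same array. Levels of different probes are not set against each other, because probes differ in how brightly they bind. Precision is limited by the number of arrays, as permuting 3 arrays against 3 exactly yields no p under 0.10. The p-values, adjusted by limma over all genes tested, reflect only how far these arrays spread.

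The megakaryocyte identity of the samples was checked on 15 marker genes, among them Itga2b (CD41), Gp5 (CD42d) and Pf4. All 15 were well above background on every array. None of the 15 megakaryocyte markers was called higher or lower in any of the 3 comparisons, while 2 rose and 6 fell with less than a 2-fold change at 1 dpi. Likewise 4 rose and 2 fell at 3 dpi, and 7 rose and 1 fell between 3 and 1 dpi. Their medians in these 3 comparisons were -0.19, -0.02 and 0.28, or -0.42, -0.14 and 0.37 relative to all genes. Markers of other marrow cells were detected as well and moved with the groups, as given at the end. In bulk RNA, fewer cells of a type and less RNA per cell cannot be told apart.

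Of the 8 genes, 2 were called higher at 1 dpi (Tnfrsf10b and Tnfrsf1b) and 0 lower, where a call needs an adjusted p under 0.05 and at least a 2-fold change. Among all 29409 genes tested, 11.7% were called higher and 3.08% lower in that comparison. With no minimum fold, 3 of the 8 genes passed as higher, Tnfrsf1a being the one added, and 2 as lower (Tnfsf10 and Casp8), against 33.4% and 21.9% of all genes. At 3 dpi Tnfrsf10b alone was called higher and 0 genes were called lower, against 7.04% and 1.79% of all genes. By the adjusted p alone, 3 of the 8 genes were higher at 3 dpi, the same 3 receptors, and Tnfsf10 was lower, against 17.1% and 14.8% of all genes. Between 3 and 1 dpi 0 of the 8 genes were called, against 4.16% of all genes called higher and 4.48% called lower, and 2 passed as higher (Fas and Casp8) and 3 as lower (Tnfrsf10b, Tnfrsf1b and Tnfsf10), against 21.0% and 23.3%. The methods' own test of each gene, unadjusted and with no minimum fold, passed 6, 5 and 5 of the 8 genes, against 52.9%, 35.8% and 56.8% of all genes. These counts are small shares of a response that reached many genes, and nothing particular to the 8 genes as a group is read from them. Both comparisons with Ctrl use the same 3 Ctrl arrays.

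Under this scaling the median gene stood 0.23 above Ctrl at 1 dpi and 0.12 above it at 3 dpi, with -0.08 for 3 against 1 dpi, on the log2 scale. For the 8 genes the median was 0.04 at 1 dpi, which is -0.19 relative to all genes, and 0.20 at 3 dpi, or 0.08 relative to all genes. Which direction prevailed among all called genes depended on the scaling at 1 dpi, whereas at 3 dpi higher calls prevailed under each scaling, with 79.7% of calls here and 66.8% in the deposited table. At 1 dpi 3455 genes were called higher and 906 lower, but 1887 and 2302 after scaling to the array median, 1943 and 1509 after quantile normalization, and 1812 and 1824 in the table of log2 values that the authors deposited. At 1 dpi no array overlapped with Ctrl for 6 of the 8 genes, at 3 dpi for 5, and 3 and 1 dpi were apart for 5, against 67.2%, 47.2% and 65.2% of all genes.

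**Figure D1:**
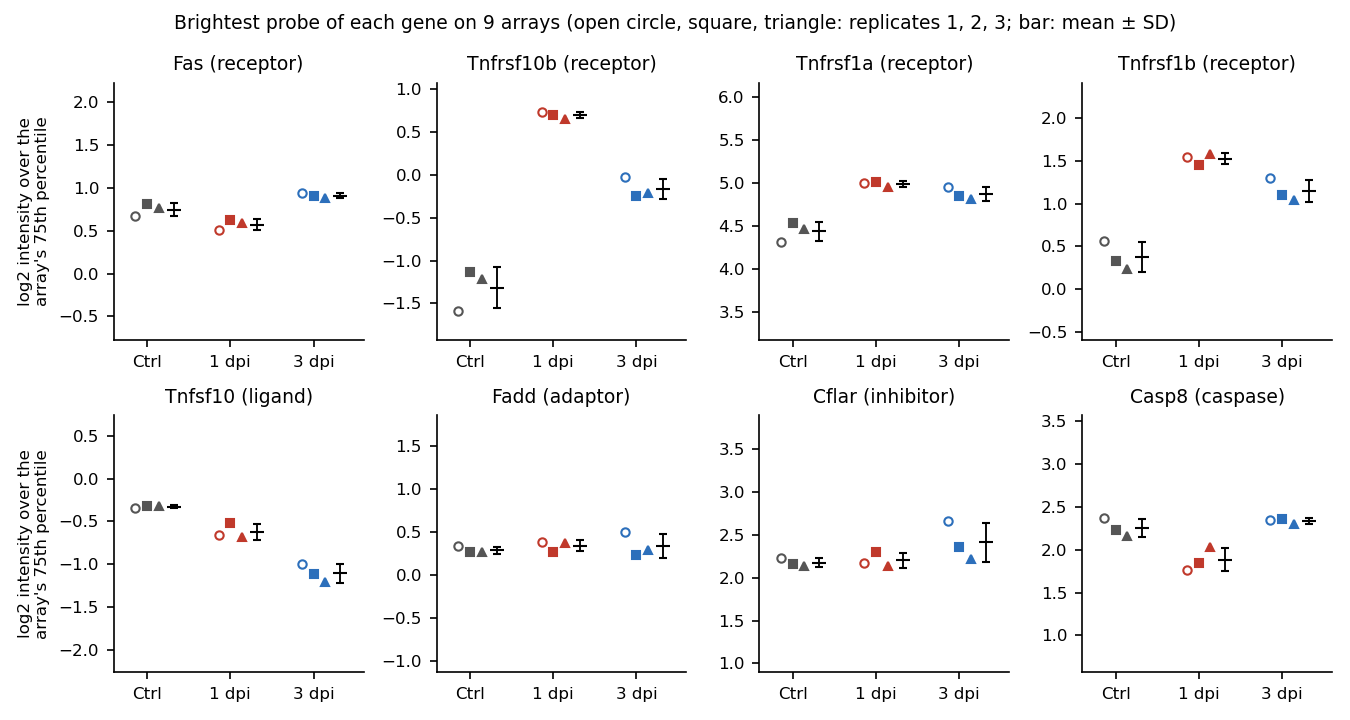
Log2 intensity over the array's 75th percentile for the brightest probe of each of the 8 genes, on 3 arrays each of Ctrl, 1 dpi and 3 dpi. Symbols are single arrays and bars the mean ± SD, and each panel spans 3 log2 units. Tnfrsf10b and Tnfrsf1b stand highest at 1 dpi, Tnfsf10 steps down from Ctrl to 3 dpi, and the groups overlap for Fadd.

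Tnfsf10 encodes TRAIL, the ligand of the receptor that Tnfrsf10b encodes. Its brightest probe read -0.35, -0.32 and -0.31 on the Ctrl arrays, -0.66, -0.52 and -0.69 at 1 dpi, and -0.997, -1.12 and -1.21 at 3 dpi. Every array at 1 dpi lay below every Ctrl array, and every array at 3 dpi lay lower still. Tnfsf10 fell by 0.29 on the log2 scale at 1 dpi (SE 0.08, adjusted p = 0.0132, lower on 3 of 3 arrays) and by 0.78 at 3 dpi (SE 0.08, adjusted p = 0.000172, 3 of 3 arrays), a level 1.72-fold lower than in Ctrl. Of all genes tested, 3.43% had a lower log2 fold change at 3 dpi. On its brightest probe the ligand Tnfsf10 thus fell by less than 2-fold at both times, while the transcript of its receptor Tnfrsf10b rose.

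The second probe for Tnfsf10 moved differently. It was designed on the cDNA clone AK144931 and read 0.74 higher at 1 dpi (SE 0.16, adjusted p = 0.00511), while its 0.09 at 3 dpi did not pass. Its sequence is shown because it is 4 copies of a unit of 15 bases, which only 6 of 56585 probes on the array match in kind, each being a repeat of 1 unit longer than 6 bases. The first 30 bases of both probes follow, on mm9 and the plus strand, at chr3:27238508-27238567 for the brighter probe and chr3:27241288-27241347 for the other, with 1 copy of the repeat unit in capitals.
Tnfsf10, NM_009425: gggaaatgttaaactttgtaaactctgaaa
Tnfsf10, AK144931: AGCGCCCCTGACAACagcgcccctgacaac
With the mean of both probes in place of the brighter one, Tnfsf10 read 0.22 at 1 dpi, which did not pass (adjusted p = 0.107), so the direction at 1 dpi rests on the choice of probe. At 3 dpi the mean of both probes was lower than in Ctrl, at -0.35 (adjusted p = 0.0378).

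Among 10 other ligands of the TNF superfamily, 2 were called higher at 1 dpi and 4 at 3 dpi, while 1 was called lower, at 3 dpi. Their median log2 fold change was 0.72 at 1 dpi, or 0.49 relative to all genes, and 0.92 at 3 dpi, or 0.80 relative to all genes. With no minimum fold, 7 rose and 3 fell at 1 dpi. Tnf, which encodes the ligand of both TNF receptors, rose by 1.38 at 1 dpi (SE 0.06, adjusted p = 2.59e-06, 3 of 3 arrays) and by 0.49 at 3 dpi (SE 0.06), the latter not passing after scaling to the array median (0.34). Fasl, the ligand of Fas and a product of cytotoxic lymphocytes, rose by 0.79 at 1 dpi, which did not pass after quantile normalization (0.42), and by 2.13 at 3 dpi (SE 0.12, adjusted p = 9.19e-06, 3 of 3 arrays). Lta, which encodes lymphotoxin alpha, rose by 0.92 at 1 dpi and by 1.45 at 3 dpi, and Tnfsf9, the 4-1BB ligand, by 0.79 and 1.11. The RANK ligand Tnfsf11 was well above background on 1 of 3 Ctrl arrays and 2 of 3 at 1 dpi, so its rise at 3 dpi is given only as a bound, at least 7.47-fold over Ctrl. For such a bound the bright group's mean is divided by the lowest signal that still counts as well above background on the dim arrays, or by the gene's own signal if that is higher. No fold is given for it at 1 dpi, although the count of 2 called there includes it, and in the deposited table it did not pass at that time. The one ligand called lower was Tnfsf13b (BAFF, a survival factor of B cells), which fell by 0.71 at 1 dpi and by 1.06 at 3 dpi.

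Tnfrsf10b, the receptor of TRAIL, showed the largest change of the 8 genes. Its brightest probe read -1.59, -1.14 and -1.22 on the Ctrl arrays, 0.73, 0.70 and 0.66 at 1 dpi, and -0.03, -0.25 and -0.21 at 3 dpi. The 3 groups were apart from each other, with 1 dpi highest and 3 dpi between, and Ctrl replicate 1 was the lowest array. Tnfrsf10b rose 4.03-fold at 1 dpi, by 2.01 on the log2 scale (SE 0.12, adjusted p = 1.33e-05, 3 of 3 arrays), and 2.12% of all genes rose more. At 3 dpi it was 2.22-fold above Ctrl, at 1.15 (SE 0.12, adjusted p = 0.000266, 3 of 3 arrays). Without Ctrl replicate 1, within the slide that the other 8 arrays share, the values were 1.87 and 1.02, both called. The call at 3 dpi stood close to the 2-fold limit, since normexp background correction with quantile normalization gave 0.98 and the mean of the 3 probes 0.87, neither of which was called.

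The array carries 3 probes for Tnfrsf10b, and the finding rests on 2 of them. They were designed on the RefSeq transcript NM_020275, lie close to each other and rose by 2.01 (SE 0.12) and 2.14 (SE 0.15) at 1 dpi, and by 1.15 and 1.20 at 3 dpi. The remaining probe was designed on the cDNA clone AK145730 and read 0.65 at 1 dpi (SE 0.25, adjusted p = 0.0558), then 0.26, neither passing. This probe and the second NM_020275 probe were dim, with Ctrl means of -4.67 and -4.49, while that of the brightest was -1.31. The first 30 bases of the 3 probes are printed to show which parts of the gene were read, on mm9 and the plus strand, at chr14:70184141-70184200, chr14:70183189-70183248 and chr14:70179395-70179454 in this order.
Tnfrsf10b, NM_020275, brightest: gatgtccttttctagtgtgtttgaagccag
Tnfrsf10b, NM_020275, second: gcaccggatccagaaggagaaataactacc
Tnfrsf10b, AK145730: ttctataaatctttgtcgtcctcacatgta
None of the 19 probes for the 8 genes shares a run of 20 bases with any other probe on the array, and all 19 were well above background on all 9 arrays.

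Tnfrsf1b encodes TNFR2, the TNF receptor without a death domain. It read 0.57, 0.33 and 0.24 on the Ctrl arrays, 1.54, 1.45 and 1.58 at 1 dpi, and 1.30, 1.11 and 1.04 at 3 dpi. Both irradiated groups lay above every Ctrl array. Tnfrsf1b rose 2.21-fold at 1 dpi, by 1.15 (SE 0.11, adjusted p = 0.000104, 3 of 3 arrays), and 1.71-fold at 3 dpi, by 0.77 (SE 0.11, adjusted p = 0.00106, 3 of 3 arrays), the latter under the 2-fold limit of a call. Relative to the median of all genes these changes were 0.92 and 0.65, and after scaling to the array median the rise at 1 dpi was 0.82, which passed the test without reaching 2-fold. The second probe, on the cDNA clone AK170464, rose by 0.95 (SE 0.09) and 0.34 (SE 0.09). Within the shared slide the brightest probe gave 1.24 at 1 dpi and 0.87 at 3 dpi.

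Tnfrsf1a encodes TNFR1, the TNF receptor with a death domain. Its Ctrl arrays read 4.32, 4.54 and 4.46, those at 1 dpi 5.00, 5.02 and 4.95, and those at 3 dpi 4.96, 4.85 and 4.81. The irradiated arrays all lay above the Ctrl arrays and overlapped with each other. Tnfrsf1a rose 1.46-fold at 1 dpi, by 0.55 (SE 0.08, adjusted p = 0.000701, 3 of 3 arrays), and 1.35-fold at 3 dpi, by 0.43 (SE 0.08, adjusted p = 0.00356, 3 of 3 arrays). Its other probe rose by 0.49 and 0.34. After scaling to the array median neither change of the brightest probe passed (0.22 and 0.28), and relative to all genes it was 0.32 at both times.

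**Figure D2:**
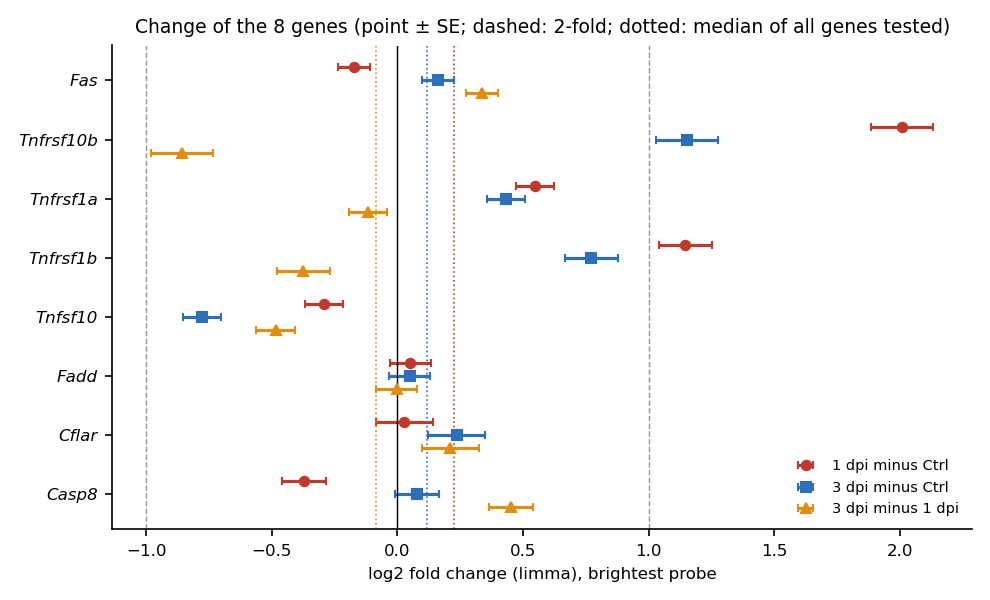
Log2 fold change of the 8 genes, brightest probe, in the 3 comparisons, as limma's estimate ± SE. Dashed lines mark a 2-fold change and dotted lines the median of all genes in each comparison, at 0.23, 0.12 and -0.08. Of the 8 genes, Tnfrsf10b and Tnfrsf1b pass the upper 2-fold line at 1 dpi and Tnfrsf10b at 3 dpi.

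The promoters of both TNF receptors are printed because these genes moved in the same direction at both times. Promoters came from RefSeq on GRCm38.p6, as the 250 bases before the start of each gene. Of the 8 genes 7 had one, and Tnfrsf10b did not. Searched on both strands were a kB motif of NF-kB (GGGNNNNNCC, held by 45.8% of 32851 promoters), the core of an ISRE (GAAANNGAAA, 2.98%) and an AP-1 motif (TGANTCA, 6.75%). Matches on either strand are in capitals, and the sequences are those of the gene's strand, at chr4:145246871-145247120 on the minus strand for Tnfrsf1b and at chr6:125349473-125349722 on the plus strand for Tnfrsf1a.
Tnfrsf1b: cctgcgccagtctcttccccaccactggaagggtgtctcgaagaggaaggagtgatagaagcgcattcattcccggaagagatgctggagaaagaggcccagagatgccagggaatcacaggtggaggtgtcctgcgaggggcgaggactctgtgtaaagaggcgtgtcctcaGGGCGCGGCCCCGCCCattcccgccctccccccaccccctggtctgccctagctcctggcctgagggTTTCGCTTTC
Tnfrsf1a: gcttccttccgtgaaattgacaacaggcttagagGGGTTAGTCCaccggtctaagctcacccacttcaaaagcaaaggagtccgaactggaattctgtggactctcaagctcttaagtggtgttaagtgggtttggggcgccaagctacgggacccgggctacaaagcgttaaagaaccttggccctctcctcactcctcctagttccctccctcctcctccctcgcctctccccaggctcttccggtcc
The Tnfrsf1b window holds 3 kB matches that overlap each other in 1 run of capitals, and 1 ISRE core at its end. The Tnfrsf1a window holds 1 kB match. The Fas window has 2 kB matches and 1 AP-1 match, while the windows of Tnfsf10, Fadd, Cflar and Casp8 have 0 matches to the 3 motifs. A match describes letters in a window and shows no binding.

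Fas, the receptor of FasL, gave a different answer for each of its 3 probes. The brightest, on NM_007987, read 0.67, 0.81 and 0.76 on the Ctrl arrays, 0.50, 0.62 and 0.59 at 1 dpi, and 0.94, 0.90 and 0.88 at 3 dpi. Its 3 groups did not overlap, with 1 dpi lowest, but against Ctrl neither difference passed the test, with -0.17 at 1 dpi (SE 0.06, adjusted p = 0.0504), then 0.16 at 3 dpi (SE 0.06, adjusted p = 0.0943). The result at 1 dpi stood at the threshold, since several alternatives passed it as lower and 2, which use other probes, as higher. Among the former were the fit without Ctrl replicate 1, at -0.21 (adjusted p = 0.0182), and scaling to the array median, at -0.50. At 3 dpi the brightest probe passed limma's test as higher after normexp with quantile normalization, at 0.17 (adjusted p = 0.0385). The probe on NM_001146708 read 0.08 at 1 dpi (SE 0.13, not passed) and fell by 0.54 at 3 dpi (SE 0.13, adjusted p = 0.0159). The probe on the mRNA L15353 rose by 1.05 at 1 dpi (SE 0.10, adjusted p = 0.00012, called) and by 0.84 at 3 dpi (SE 0.10, adjusted p = 0.000523).

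The L15353 probe also stands apart in its position. The array files place it on chr4:40555124-40555183, minus strand, of mm9, where no other probe on the array lies within 50000 bases. They place the NM_007987 probe on chr19:34402164-34402223 and the NM_001146708 probe on chr19:34383733-34383792, both on the plus strand. Which transcript the probe on chromosome 4 detects was not tested, since no mm9 genome was at hand. The first 30 bases of the 3 probes show that different stretches were read.
Fas, NM_007987: gaagaccttccattgatggacagttctttt
Fas, NM_001146708: ggagagactctttaaaatgaaaacacaata
Fas, L15353: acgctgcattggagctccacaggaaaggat
In the deposited table, the single row named Fas follows the L15353 probe, with a largest difference of 0.000905 on the log2 scale over the 9 arrays after quantile normalization. That row reads 8.03 ± 0.08 in Ctrl, 8.99 ± 0.07 at 1 dpi and 8.82 ± 0.20 at 3 dpi (SD, n = 3), a change of 0.96 and 0.79, both passing the test. A reader of that table would therefore see Fas rise after IR, while the brightest of the 3 Fas probes shows -0.17 and 0.16.

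**Figure D3:**
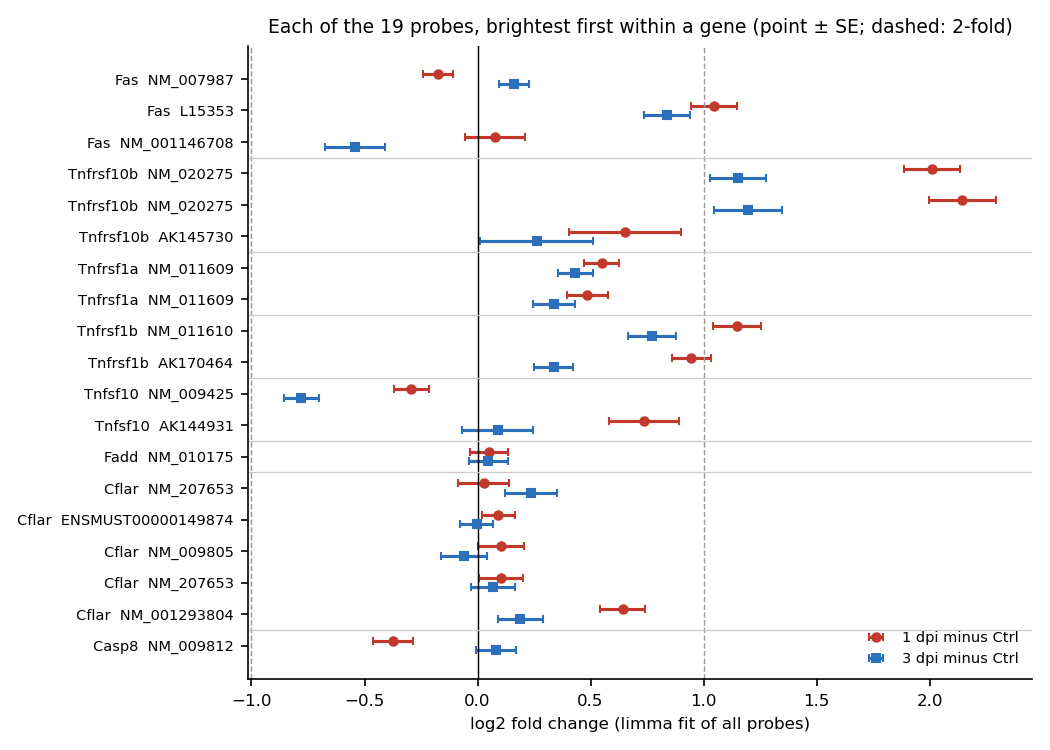
Log2 fold change against Ctrl at 1 dpi (circles) and 3 dpi (squares) for each of the 19 probes, as limma's estimate ± SE, with the accession each probe was designed on and the brightest probe of a gene first. Dashed lines mark a 2-fold change. The 2 NM_020275 probes of Tnfrsf10b stand at 2.01 and 2.14 at 1 dpi, whereas the 3 Fas probes range from -0.17 to 1.05.

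Among the 44300 probes tested one by one, 14.3% were called in either direction at 1 dpi, 8.47% were at 3 dpi, and 8.57% were for 3 against 1 dpi. Of the 19 probes for the 8 genes, 4 were called at 1 dpi, namely 2 of Tnfrsf10b, 1 of Tnfrsf1b and the L15353 probe of Fas, and 2 at 3 dpi, both of Tnfrsf10b. Of the 6 genes with several probes, the deposited table follows a probe other than the brightest for 3, which are Fas, Tnfrsf1a and Cflar. For Tnfrsf1a the probe it follows moved in the same direction as the brightest.

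**Figure D4:**
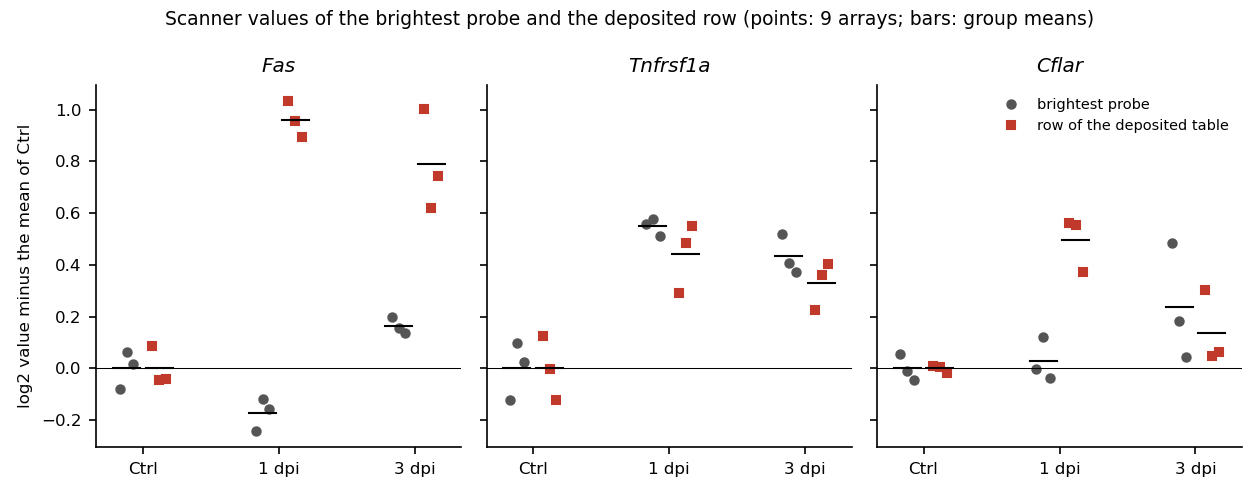
Values on 9 arrays minus the mean of the 3 Ctrl arrays, on the log2 scale, for the brightest probe (circles) and the row of the deposited table (squares) of the 3 genes whose row follows another probe. Bars are group means. For Fas the deposited row stands 0.96 above Ctrl at 1 dpi and the brightest probe at -0.17.

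Of 13 other receptors of the superfamily, 2 were called higher and 0 lower at each time against Ctrl, and 8 rose and 1 fell with no minimum fold. Their median was 0.40 at 1 dpi, or 0.17 relative to all genes, and 0.54 at 3 dpi, or 0.42 relative to all genes. Eda2r, which encodes a receptor of ectodysplasin and is a known p53 target, was well above background on 0 of 3 Ctrl arrays and on all arrays post IR. Its rise is likewise only bounded, at least 20.9-fold at 1 dpi and at least 8.15-fold at 3 dpi. Tnfrsf9 (4-1BB), a costimulatory receptor, rose by 3.21 at 1 dpi (SE 0.12, adjusted p = 1.33e-06, 3 of 3 arrays) and was still 2.76 above Ctrl at 3 dpi. Edar was well above background on 0 of 3 arrays at 1 dpi and can only be bounded as at least 1.40-fold higher at 3 than at 1 dpi, which is under the 2-fold limit of a call.

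Fadd encodes the adaptor that links Fas and the TRAIL receptor to caspase-8. It has 1 probe, which read 0.34, 0.27 and 0.26 on the Ctrl arrays, 0.38, 0.27 and 0.37 at 1 dpi, and 0.50, 0.23 and 0.29 at 3 dpi. The 3 groups overlapped. The log2 fold changes were 0.05 at both times (SE 0.08, adjusted p = 0.609 and 0.681), and no change was detectable with 3 arrays per group. With arrays scaled by their medians the values were -0.27 and -0.10, neither passing. Of 28 genes for other adaptors, kinases and ubiquitin enzymes of these receptors, 1 was called higher at each time and 0 lower, and 8 rose and 8 fell at 1 dpi with no minimum fold. Their median was 0.06 at 1 dpi, which is -0.17 relative to all genes, and -0.02 at 3 dpi, or -0.14. The gene called at 1 dpi was Tnfaip3 (A20), a deubiquitinase that restrains NF-kB signaling, at 1.20 (SE 0.06, adjusted p = 4.9e-06, 3 of 3 arrays). At 3 dpi it was Traf1, an NF-kB-induced adaptor, at 1.54 (SE 0.09, adjusted p = 1.15e-05, 3 of 3 arrays), up from 0.93 at 1 dpi.

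Cflar encodes FLIP, which resembles caspase-8 but lacks its catalytic activity. Its brightest probe read 2.23, 2.16 and 2.13 on the Ctrl arrays, 2.17, 2.30 and 2.14 at 1 dpi, and 2.66, 2.36 and 2.22 at 3 dpi. The groups overlapped, and 3 dpi replicate 1 was the highest array. The differences from Ctrl did not pass, with 0.03 at 1 dpi (SE 0.11, adjusted p = 0.852), then 0.24 at 3 dpi (SE 0.11, adjusted p = 0.16). The value at 1 dpi was -0.30 with arrays scaled by their medians. Of the 5 Cflar probes, 4 read between 0.03 and 0.10 at 1 dpi and did not pass. The fifth, on NM_001293804, rose by 0.64 (SE 0.10, adjusted p = 0.00111), and it is the one the deposited table follows. It is placed on 4479 positions of mm9, at chr1:58783552-58788030, a span far longer than the probe, so its bases come from separate stretches of the genome. In the deposited table Cflar rose by 0.49 at 1 dpi and read 0.14 at 3 dpi.

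A list of 10 other genes held inhibitors and further modulators, such as Adam17 and Bcl10. Of these, 1 was called higher at 1 dpi and 3 at 3 dpi, with 0 called lower at both times. The median was 0.10 at 1 dpi, which is -0.13 relative to all genes, and 0.21 at 3 dpi, or 0.09 relative to all genes. Nol3 (ARC), an inhibitor of both death pathways, had 2 of 3 Ctrl arrays well above background, and its rise is bounded in the same way, at least 3.08-fold at 1 dpi and 2.92-fold at 3 dpi. Pea15a, whose death effector domain binds FADD and caspase-8, rose by 0.76 at 1 dpi and by 1.65 at 3 dpi (SE 0.10, adjusted p = 1.37e-05). Ptpn13, a phosphatase that binds Fas, rose by 2.15 at 3 dpi (SE 0.19, adjusted p = 9.01e-05), whereas its 0.56 at 1 dpi became -0.48 in the deposited table. Xiap, a direct inhibitor of caspases, fell by 0.85 at 1 dpi and read 0.04 at 3 dpi.

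Casp8 encodes caspase-8, the initiator that the receptors activate. Its 1 probe read 2.37, 2.23 and 2.16 on the Ctrl arrays, 1.77, 1.85 and 2.03 at 1 dpi, and 2.35, 2.35 and 2.30 at 3 dpi. Every array at 1 dpi lay below every Ctrl array, while Ctrl and 3 dpi overlapped. Casp8 fell by 0.37 at 1 dpi, to a level 1.30-fold lower (SE 0.09, adjusted p = 0.00855, 3 of 3 arrays), and read 0.08 at 3 dpi (SE 0.09, adjusted p = 0.519), a value that turned to -0.07 with arrays scaled by their medians.

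The other 9 caspases had 1 gene called lower and 0 higher at 1 dpi and 0 called at 3 dpi in limma's test, while 3 rose and 4 fell at 1 dpi with no minimum fold, and 2 rose and 1 fell at 3 dpi. Their median was -0.13 at 1 dpi, or -0.36 relative to all genes, and 0.07 at 3 dpi, or -0.05. The one called was Casp6, an executioner, which fell by 1.08 at 1 dpi, 2.11-fold lower than in Ctrl (SE 0.09, adjusted p = 4.89e-05, 3 of 3 arrays), and read 0.03 at 3 dpi. The initiator Casp9 fell by 0.42 at 1 dpi (SE 0.07) and read 0.07 at 3 dpi. Casp2, which acts after DNA damage, fell by 0.71 at 1 dpi and by 0.46 at 3 dpi. Casp4, a sensor of bacterial lipopolysaccharide, rose by 0.82 at 1 dpi (SE 0.06, adjusted p = 2.44e-05, 3 of 3 arrays) and by 0.81 at 3 dpi, and Casp1, which matures interleukin-1, by 0.42 and 0.34. Casp12 fell by 0.25 at 1 dpi and read -0.07 at 3 dpi, and Casp14, a caspase of the skin, did not pass at either time, with 2 of 3 Ctrl arrays well above background. A further list held 9 genes of the mitochondrial arm and of DNA fragmentation, such as Bid, Cycs, Apaf1 and Dffb. Of these 9 genes, 0 were called at either time by limma, and 2 rose and 3 fell at 1 dpi with no minimum fold. Their median at 1 dpi was 0.04, which is -0.19 relative to all genes. At 3 dpi 2 of them rose and 0 fell, with a median of 0.11, or -0.01 relative to all genes.

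**Figure D5:**
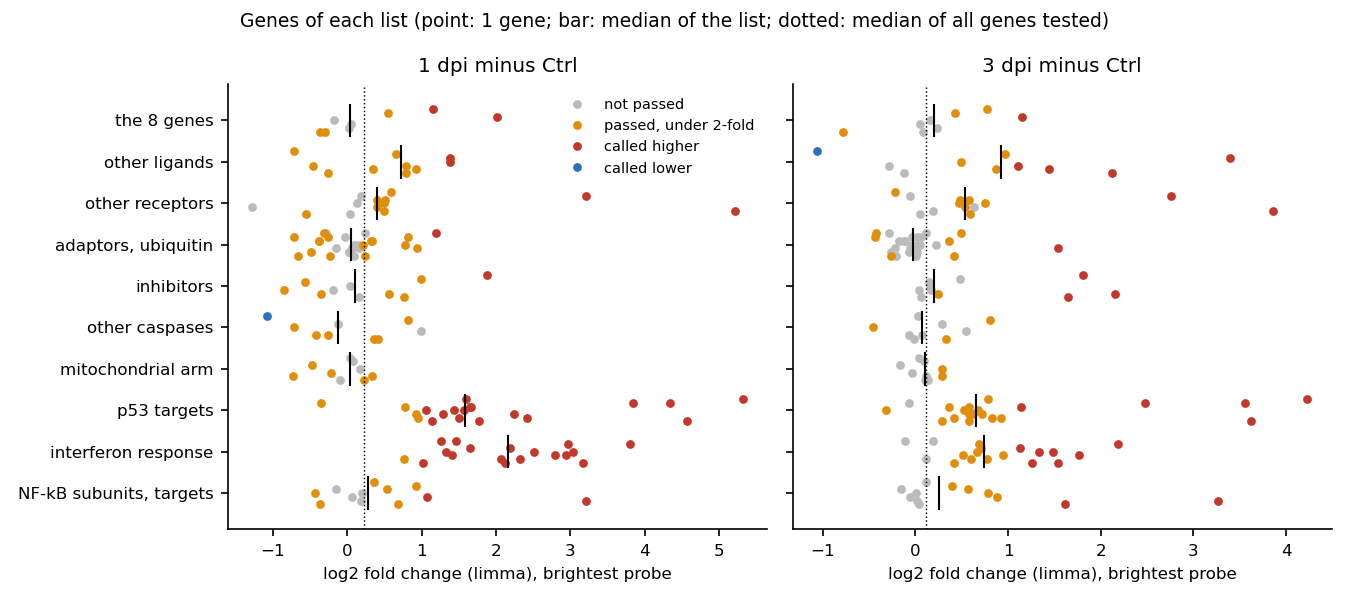
Log2 fold change (limma, brightest probe) of each gene in 10 lists at 1 and 3 dpi against Ctrl, with the median of the list as a bar and that of all genes as a dotted line, at 0.23 and 0.12. Colours give the call, and genes for which only a bound is known, such as Eda2r and Tnfsf11, are plotted at their fitted values. The p53 targets and interferon genes lie to the right, with medians of 1.58 and 2.16 at 1 dpi.

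Tnfrsf10b and Fas were set beside 20 other p53 targets. At 1 dpi 16 of these were called higher, at 3 dpi 5, and 0 were called lower at either time, with medians of 1.58 and 0.65, or 1.35 and 0.53 relative to all genes. The rise of 2.01 and then 1.15 of Tnfrsf10b lies above both medians, and the brightest probe of Fas, at -0.17 and 0.16, lies below both. The cell cycle inhibitor Cdkn1a rose by 3.85 at 1 dpi (SE 0.11) and by 2.48 at 3 dpi, and the pro-apoptotic Bax by 2.42 (SE 0.06) and 0.93. Between 3 and 1 dpi 8 of the 20 were called lower and 0 higher, with a median of -0.83, beside the fall of Tnfrsf10b by 0.86.

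TNF and TRAIL receptors are also known to respond to interferon and NF-kB. Of 18 interferon response genes, 17 were called higher at 1 dpi and 7 at 3 dpi, with 0 called lower against Ctrl, and their medians were 2.16 and 0.74, or 1.93 and 0.63 relative to all genes. The antiviral gene Ifit3 rose by 3.80 at 1 dpi (SE 0.07) and by 2.19 at 3 dpi. Tnfsf10 is itself known as an interferon-inducible gene, and its brightest probe was lower than in Ctrl at both times, while its second probe was higher at 1 dpi. Between 3 and 1 dpi 12 of the 18 were called lower and 0 higher, with a median of -1.32. Of 12 NF-kB subunits, inhibitors and target genes, 2 were called higher and 0 lower at each time, with medians of 0.28 and 0.26, or 0.06 and 0.14 relative to all genes. The chemokine Ccl2 rose by 3.21 (SE 0.06) and 3.27, the adhesion molecule Icam1 by 1.07 (SE 0.08) and 0.88, and Bcl3, a partner of NF-kB, by 0.69 and 1.61 (SE 0.08). Whether any of these regulators acted on the 8 genes was not tested.

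Genes whose values followed those of the called receptors most closely over the 9 arrays are given as a description, since the 9 arrays fall into 3 groups and any gene with the same group means would correlate. For Tnfrsf10b they were Gm4098 (Pearson r = 0.9962), Cryab (0.9948) and Trim30b (0.9948). For Tnfrsf1b they were Adam15 (0.9985), Kctd17 (0.9983) and the probe named NAP060691-1 (0.9975).

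Markers of other cell types moved with the groups, given here as counts of called genes and list medians. Of 12 macrophage markers, 5 were called higher and 1 lower at 1 dpi, with a median of 0.42, or 0.19 relative to all genes. At 3 dpi 9 were called higher and 0 lower, with a median of 2.05, among them Marco, a scavenger receptor, at 3.87 after 2.93 at 1 dpi. Macrophages are known to carry both TNF receptors, and the part of their RNA in the rise of Tnfrsf1a and Tnfrsf1b was not tested.

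Stromal and endothelial cells form the niche of the marrow. Of 10 stromal markers, 7 were called higher at 1 dpi and 6 at 3 dpi, 0 lower, with medians of 1.48 and 3.33. Of 10 endothelial markers, 4 and 7 were called higher and 0 lower, with medians of 0.76 and 1.70. T and NK cells are the known source of Fasl, and their part in its rise was not tested. At 1 dpi 3 of their 11 markers were called higher and 1 lower, at 3 dpi 5 were higher by call, with medians of 0.54 and 0.77. Gzma, a granzyme of that list, rose by 1.17 and 2.23.

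B cells and red cell precursors are among the marrow cells most sensitive to radiation. Of 10 B-cell markers, 9 were called lower at 1 dpi and 8 at 3 dpi, 0 higher, with medians of -3.31 and -2.69. At 1 dpi 2 of 10 erythroid markers were called higher and 7 lower, and at 3 dpi 9 were lower by call. Some of them, such as Epb42, were well above background on 0 of 3 arrays at 1 dpi. The erythroid medians of -2.81 and -2.04 include the fitted values of such dim genes. Scaled intensities, not log2 values, were also summed over the 10 erythroid markers, of which Hba-a1 was the brightest. The sum was 121 to 149 on the Ctrl arrays, 277 to 342 at 1 dpi and 43.7 to 47.8 at 3 dpi. Unlike the median, the summed erythroid signal was thus above Ctrl at 1 dpi, and it was below Ctrl at 3 dpi. Neutrophil markers had 1 of 10 called higher at 1 dpi and 0 otherwise, with medians of 0.49 and 0.02 and 6 passing as higher at 1 dpi. Of 9 dendritic markers 8 were tested, Xcr1 being too dim, with 2 called higher and 3 lower at 1 dpi and 2 lower at 3 dpi. The dendritic medians were -0.17 and -0.12. The part of these cells in the changes of the 8 genes was not tested.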

How the data were processed

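The authors deposited spot values of 9 arrays as intensity, read with Agilent Feature Extraction 10.7.1.1, which subtracts background and detrends within an array, and a table of log2 values with 27275 gene names, deposited without a stated method, whose quartiles are nearly equal between arrays. Of 62976 spots, 59305 carry 56605 probes. Outlier spots of the files were dropped, at the loss of 20 probes, none was saturated, and repeated spots were averaged. Genes were named through RefSeq accessions (GRCm38.p6), otherwise by the array files. Log2 intensities were scaled by subtracting each array's 75th percentile. A probe was kept if some group had it well above background on each of its 3 arrays, and the brightest probe stood for its gene. In R 4.3.3, limma 3.58.1 fitted 1 model of 3 group means, moderated, with Benjamini-Hochberg adjustment over 29409 genes, or 44300 probes. Calls needed an adjusted p below 0.05 and a change of 2-fold or more. Files were handled with pandas 2.3.3 and numpy 2.4.6 in Python 3.11.15 and the R package data.table (version 1.17.8), and figures drawn with matplotlib 3.10.9. Alternatives were other scalings, the deposited table, other filters, the mean of probes, blocks, left-out arrays and the methods' t-test for 2 groups. Normexp used an offset of 50.

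Named with values are the 8 genes, of each other list some of the called genes with the 4 largest changes, and the 3 genes most like each called member. Other caspases, Xiap and Tnfsf13b were added after their values were seen. Genes named without a value are examples of their list. The members and lists were chosen with earlier results of these data known.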

Additional observations from a re-analysis of the deposited data

Results flagged for a closer look

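For 5 of the 8 genes the change post IR differed between 3 and 1 dpi, by limma's test of the difference itself over all genes tested, against 21.0% of all genes higher and 23.3% lower. The TRAIL receptor Tnfrsf10b was lower at 3 than at 1 dpi, at -0.86 on the log2 scale (adjusted p = 0.00113). Its ligand Tnfsf10 was lower as well, at -0.49 (adjusted p = 0.00175). With arrays scaled by their medians this was -0.31 and did not pass. The TNF receptor Tnfrsf1b stood at -0.38 (adjusted p = 0.0232), and with 4 of the 9 arrays left out singly this difference did not pass, with a highest adjusted p of 0.0824. Median scaling left it at -0.20 (adjusted p = 0.415). Casp8 was higher at 3 than at 1 dpi, at 0.45 (adjusted p = 0.00453). Fas was higher by 0.34 on its brightest probe (adjusted p = 0.00423), whereas its probe on NM_001146708 was lower by -0.62 and the mean of its 3 probes stood at -0.16 and passed in this opposite direction (adjusted p = 0.0398). All 3 arrays at 3 dpi lay on the stated side of all 3 arrays at 1 dpi for each of these brightest probes, as they did for 65.2% of all genes. None of the 5 differences reached 2-fold.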

How the results depend on the processing

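Of 222 alternative values for the 9 counts, 197 were within 1.5 times the value reported and 25 were not. The fit without Ctrl replicate 1 is also the fit within the shared slide, and these totals count it under both names. For the number of genes called at 1 dpi, 3 dpi and between 3 and 1 dpi, normexp with quantile normalization gave 1681, 1163 and 1098, no minimum fold 16275, 9391 and 13015, the methods' test of each gene 15559, 10518 and 16717 unadjusted and 12597, 7083 and 14160 after Benjamini-Hochberg adjustment. For the number of the 8 genes called, no minimum fold gave 5, 4 and 5, the methods' test 6, 5 and 5 unadjusted and 5, 4 and 5 adjusted. Scaling to the array median called 1 of the 8 genes at 1 dpi and passed 3 by adjusted p between 3 and 1 dpi. Normexp and the mean of probes each called 0 of the 8 genes at 3 dpi. Dropping the fold limit or the adjustment raises a count by construction, and for the others the cause was not tested. With 1 array left out, 3542 to 5247, 2369 to 2790 and 2231 to 2809 genes were called, of the 8 genes 2 to 2, 1 to 1 and 0 to 0, and 5 to 6, 4 to 4 and 4 to 5 passed by adjusted p.

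The direction of called genes moved with the scaling. Between 3 and 1 dpi 1223 were higher and 1318 lower, but 1777 and 828 after scaling to the array median, 1618 and 954 after quantile normalization and 1687 and 1006 in the deposited table. Replicate numbers were not used to pair arrays. Deviations from the group means correlated between -0.107 and 0.128 for arrays of the same number and between -0.147 and 0.102 for different numbers. With 3 arrays per group, these correlations cannot decide whether arrays were paired. With replicate as a block 4186, 2505 and 2454 genes were called. Slide as a random block (correlation 0.648) kept the number of the 8 genes called at 2, 1 and 0.

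The sign turned in 19 values of the 8 genes. Directions turned for Fas at 1 dpi with the deposited table (0.96) and the mean of probes (0.32), and between 3 and 1 dpi likewise (-0.17 and -0.16). They also turned for Tnfsf10 at 1 dpi with the mean of probes (0.22), for Cflar between 3 and 1 dpi (-0.36, and -0.11 with the mean of probes) and, outside the 8 genes, Ptpn13 at 1 dpi (-0.48) with the deposited table. For Fas, Tnfsf10 and Cflar the alternative reads other probes, and for Ptpn13 the cause was not tested. With scaling to the array median, values that had not passed turned for Fadd in the 3 comparisons (-0.27, -0.10 and 0.17), Cflar at 1 dpi (-0.30), Casp8 at 3 dpi (-0.07) and Tnfrsf1a between 3 and 1 dpi (0.06). The other 6 turns, of Fadd and Cflar, came with an array left out and were between -0.03 and 0.05. Signal over background limits Eda2r, Edar, Tnfsf11 and Nol3 to bounds. Of 552 values for the log2 fold changes of the 8 genes 516 kept their direction and their side of the adjusted p of 0.05, which leaves the 2-fold limit aside. This total, too, counts the fit without Ctrl replicate 1 under both of its names.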
